A study of Homo sapiens with 16 samples.

Results

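The promoters described here were 1666 of the 21857 human promoters in the deposited tables, selected on their chromatin giving more signal after a light than after a heavy digestion with micrococcal nuclease (MNase) over the whole 2 kb around the transcription start site (TSS). A promoter was taken when 3 conditions held. Its mean signal in untreated cells after light digestion was at least 0.5 rpm (fragment counts per 1000000 fragments). The log2 ratio of its signal between -100 and +40 bp to its mean signal, in the same table, lay between -2 and 0.3, which leaves out promoters with a very deep gap at the TSS and promoters with a strong nucleosome over it. Its log2 ratio of light over heavy signal, averaged over the 2 kb at 60 min of stimulation, was above 0.5, which is a 1.41-fold excess in the light digest. In all, 9049 promoters met the first 2 conditions. The 7383 of them that failed the third are called the remaining promoters, and the 1994 of those with a 60 min ratio below -0.5 are called resistant promoters. These values chose the promoters and are not results. The results are the untreated, 20 min and 40 min ratios, in libraries that the third condition did not use.

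MNase cuts linker DNA first and then trims and cuts within nucleosomes, so the fragments recovered depend on how far digestion has gone. Fragments seen mainly after light digestion (MNase-sensitive) come from nucleosomes that are lost as digestion goes on, and fragments kept after heavy digestion (MNase-resistant) come from those that withstand it. A typical active promoter has a nucleosome-depleted stretch just upstream of the TSS, flanked by the -1 nucleosome upstream and the +1 nucleosome downstream. MNase also cuts A and T richer DNA more readily, so base composition is given beside the ratios below.

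GM12878 is an established human B-lymphoblastoid line, transformed with Epstein-Barr virus. The cells were left untreated or were stimulated with heat-killed Salmonella typhimurium (HKST) for 20, 40 or 60 min, crosslinked with formaldehyde, and digested with 20 U (light) or 200 U (heavy) of MNase. Mononucleosomal DNA was enriched for promoters by sequence capture and sequenced from both ends (mTSS-seq). The 16 samples are 2 replicates of each of the 8 combinations of time and digestion, but each deposited table combines both replicates. There was therefore no spread between replicates, no test between times was possible, and the extent of digestion in a given tube cannot be told apart from the time of stimulation. RNA was not measured here, so the labelled cell type could not be set against RNA markers.

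The depth recovered from the tables ran from 9430000 to 10500000 fragments in the light digests and from 3270000 to 7040000 in the heavy digests, lowest at 40 min. Both digests were complete for 16260 promoters in untreated cells, for 2801 at 20 min (on chromosomes 1, 10 and 11 only) and for all 21857 at 40 and 60 min. Even so, some bins of these promoters held no value, and each mean was taken over the others. At 40 min these were 12.5% of the bins of the sensitive promoters and 10.8% of all bins. Of the 1666 whole-region sensitive promoters, 1273 could be read without HKST, 214 at 20 min and 1666 at 40 min. Intervals given for single promoters are exact 95% intervals from the fragment counts and cover counting error only. Intervals of medians cover the spread over promoters only. Promoters whose 2 kb overlap share fragments, which was the case for 25.6% of the sensitive promoters and 17.5% of all promoters.

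The sequences of 4 sensitive promoters from among the most deeply covered ones, and of 2 resistant promoters set beside them, are printed to show what the DNA under these ratios looked like. Each runs 5′ to 3′ along the gene's strand from 250 bp upstream to 50 bp downstream of the TSS in hg19, read from the GRCh37 genome, with CpG dinucleotides in capitals.
CDC123, chr10:12237711-12238010, plus strand: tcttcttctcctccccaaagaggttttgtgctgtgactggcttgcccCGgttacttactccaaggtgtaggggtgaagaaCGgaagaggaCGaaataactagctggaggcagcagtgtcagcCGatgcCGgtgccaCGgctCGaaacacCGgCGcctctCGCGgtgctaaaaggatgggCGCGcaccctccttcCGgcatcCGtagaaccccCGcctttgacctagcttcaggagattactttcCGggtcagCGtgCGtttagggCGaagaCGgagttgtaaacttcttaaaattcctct
CAPZA1, chr1:113161825-113162124, plus strand: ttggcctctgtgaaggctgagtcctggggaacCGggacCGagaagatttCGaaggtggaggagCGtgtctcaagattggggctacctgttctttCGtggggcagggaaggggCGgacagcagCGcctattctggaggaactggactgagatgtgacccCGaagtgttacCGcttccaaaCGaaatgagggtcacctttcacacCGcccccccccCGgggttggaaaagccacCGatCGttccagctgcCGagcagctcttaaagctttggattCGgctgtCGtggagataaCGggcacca
ST7L, chr1:113161991-113162290, minus strand: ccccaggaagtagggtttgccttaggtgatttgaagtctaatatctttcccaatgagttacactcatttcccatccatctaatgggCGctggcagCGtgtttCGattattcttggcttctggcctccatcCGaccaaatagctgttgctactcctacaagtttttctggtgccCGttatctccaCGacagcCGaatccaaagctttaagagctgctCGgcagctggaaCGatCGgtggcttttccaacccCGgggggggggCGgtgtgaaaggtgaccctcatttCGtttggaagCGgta
NUP160, chr11:47870008-47870307, minus strand: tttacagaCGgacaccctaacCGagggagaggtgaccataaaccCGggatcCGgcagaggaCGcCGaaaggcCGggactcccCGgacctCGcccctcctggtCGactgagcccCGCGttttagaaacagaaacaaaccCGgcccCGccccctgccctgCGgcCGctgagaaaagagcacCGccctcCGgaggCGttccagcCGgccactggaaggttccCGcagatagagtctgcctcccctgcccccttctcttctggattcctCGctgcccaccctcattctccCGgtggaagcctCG
CR1L, chr1:207818208-207818507, plus strand: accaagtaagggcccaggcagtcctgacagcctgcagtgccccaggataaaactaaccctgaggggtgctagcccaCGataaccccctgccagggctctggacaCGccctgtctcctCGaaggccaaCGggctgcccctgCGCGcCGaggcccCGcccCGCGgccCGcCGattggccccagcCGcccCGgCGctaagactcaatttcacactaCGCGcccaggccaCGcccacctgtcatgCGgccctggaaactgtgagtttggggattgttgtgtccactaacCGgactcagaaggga
LCK, chr1:32739462-32739761, plus strand: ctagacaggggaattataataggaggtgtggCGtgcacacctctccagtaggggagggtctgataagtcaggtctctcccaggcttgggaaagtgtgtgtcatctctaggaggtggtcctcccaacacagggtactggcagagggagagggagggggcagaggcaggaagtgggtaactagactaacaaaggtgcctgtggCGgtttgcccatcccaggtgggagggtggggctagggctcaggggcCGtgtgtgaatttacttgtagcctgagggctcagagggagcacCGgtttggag

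CDC123, an assembly factor of the translation initiation complex eIF2, had 21 CpG dinucleotides in these 300 bp and a GC content of 55.7%, and the window also held an exon of NUDT5 on the other strand. CAPZA1, an actin capping subunit, and ST7L are divergent genes whose windows overlapped, with 18 and 14 CpG dinucleotides. The starts used here lay 353 and 229 bp from an annotated transcript start, and the CAPZA1 window held an exon of ST7L only. NUP160, a nuclear pore protein, had 24 CpG dinucleotides and a GC content of 65.0%. The resistant promoter of CR1L, a complement receptor-like gene, was as rich, with 20 CpG dinucleotides and a GC content of 65.3%. The resistant promoter of LCK, a T cell tyrosine kinase, held 4. Among these 6 windows, GC content and CpG number did not separate sensitive from resistant promoters.

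The sensitive promoters gave more light than heavy signal in untreated cells and at 20 and 40 min. Their median log2 ratio was 0.557 without HKST (95% interval 0.54 to 0.581, n = 1273 promoters), 0.679 at 20 min (0.626 to 0.731, n = 214) and 0.603 at 40 min (0.588 to 0.62, n = 1666). Over all promoters the medians were 0.066, 0.084 and 0.035. The remaining promoters had medians of -0.087, -0.171 and -0.135, and the resistant promoters -0.619, -0.622 and -0.566. The order of these groups was the same in the 3 conditions. On the 214 sensitive promoters that could be read at every time, the medians were 0.555 without HKST, 0.679 at 20 min and 0.603 at 40 min.

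A log2 ratio above 0.5 was kept by 749 of 1273 sensitive promoters in untreated cells (58.8%), against 16.7% of all promoters and 6.87% of the remaining ones. At 20 min the count was 162 of 214 (75.7%), against 22.4% of all and 4.95% of the remaining promoters. At 40 min it was 1076 of 1666 (64.6%), against 16.0% and 4.35%. Nearly all leaned toward the light digest, with 1261, 212 and 1647 above 0 in the 3 conditions (99.1%, 99.1% and 98.9%, against 54.9%, 55.9% and 52.6% of all promoters). The counting interval lay wholly above 0 for 1125 of 1273 in untreated cells (88.4%, against 34.6% of all and 21.0% of the remaining promoters), for 200 of 214 at 20 min (93.5%, against 37.5% and 17.3%) and for 1388 of 1666 at 40 min (83.3%, against 28.4% and 13.5%). For none of the 3 conditions did a sensitive promoter have an interval wholly below 0. Of the 214 promoters read at each time, 88 were above 0.5 in all 3 conditions (41.1%, against 8.39% of all promoters) and 208 were above 0 (97.2%, against 43.0%). Across the 9049 promoters of like level and shape, the 60 and 40 min ratios had a Pearson r of 0.90 and a Spearman rho of 0.91, as a description over promoters that share libraries.

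**Figure D1:**
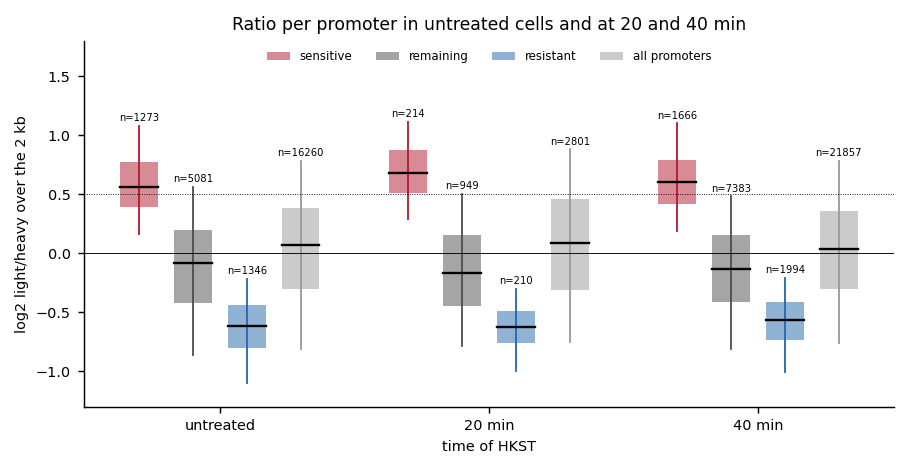
Log2 ratio of light over heavy signal over the 2 kb (vertical axis) by time of HKST, for sensitive, remaining, resistant and all promoters, with the median as a black line, the middle 50% of promoters as a box, the 5th to 95th percentile as a thin line and the selecting limit of 0.5 dotted. The sensitive promoters centre near 0.6 in each condition, the resistant ones near -0.6, and the remaining promoters lie between them.

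The sensitive promoters differed from all promoters more in the heavy than in the light digest. At 40 min the median signal of the sensitive promoters was 1.06 rpm in the light digest and 0.672 rpm in the heavy digest. Over all promoters these values were 1.14 and 1.09 rpm. The resistant promoters gave 1.28 rpm in the light digest and 1.97 rpm in the heavy digest. In untreated cells the sensitive promoters gave 1.09 rpm light and 0.702 rpm heavy, and at 20 min 1.23 and 0.734 rpm. The light signal of the sensitive promoters was thus close to that of all promoters, while their heavy signal was below that of all promoters in each condition. All promoters include those that failed the limits on level and shape, and the untreated light signal itself entered the choice. The remaining promoters, which met these limits, gave 1.3 rpm light and 1.4 rpm heavy in untreated cells. They gave 1.33 and 1.46 rpm at 20 min, and 1.29 and 1.45 rpm at 40 min. Against them the sensitive promoters were lower in both digests, and more so in the heavy one. A sensitive promoter rested on a median of 291 light and 64 heavy fragments at 40 min.

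Averaged over promoters, the ratio was above 0 at 200 of 200 positions along the 2 kb in each of the 3 conditions, and at 0 of 200 positions for the resistant promoters at 40 min. The average profile of the sensitive promoters kept the usual promoter form. At 40 min the light signal was lowest at -50 bp (0.528 rpm), with a -1 peak of 1.27 rpm at -190 bp and a +1 peak of 1.48 rpm at +130 bp. In the heavy digest the lowest value was 0.293 rpm at -30 bp, the -1 peak was 0.676 rpm and the +1 peak was 1.03 rpm at +150 bp. The log2 ratio was therefore uneven, with a highest value of 0.851 at -160 bp, over the -1 nucleosome, and a lowest value of 0.321 at +210 bp. In untreated cells the highest was 0.756 at -110 bp and the lowest 0.211 at +240 bp, and at 20 min the highest was 1.06 at -130 bp and the lowest 0.297 at +230 bp. The lowest value lay just past the +1 nucleosome at each time. The highest lay just upstream of the TSS at 20 and 40 min, while in untreated cells the value at -850 bp (0.752) was nearly the same as that at -110 bp. The profile over all promoters had a like form at a lower level. Its highest value was 0.137 at -890 bp in untreated cells, 0.256 at -220 bp at 20 min and 0.156 at -210 bp at 40 min. Its lowest, in the same order, was -0.301 at +230 bp, -0.223 at +230 bp and -0.279 at +240 bp.

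**Figure D2:**
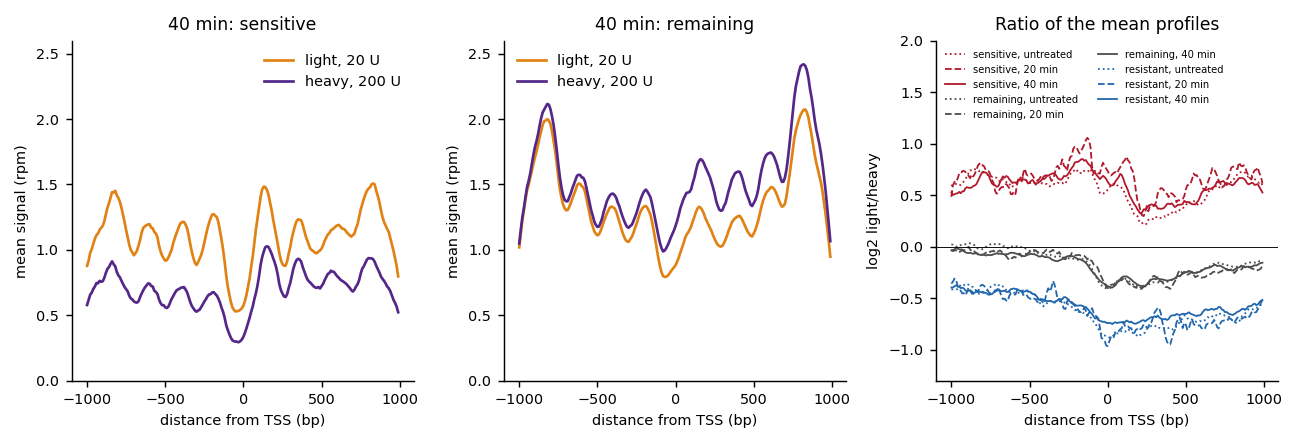
Mean signal in rpm after light and heavy digestion at 40 min over the sensitive (left) and remaining promoters (middle), and the log2 ratio of the mean profiles of sensitive, remaining and resistant promoters in untreated cells and at 20 and 40 min (right), by distance from the TSS in bp. The ratio of the sensitive promoters is above 0 along the whole 2 kb at each time, with its highest value upstream of the TSS, where the 40 min value reaches 0.851.

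Promoter by promoter, the ratio was above 0 over less of the 2 kb than in the average. Each 2 kb was divided into 10 windows of 200 bp. The median of 64 heavy fragments per sensitive promoter at 40 min is spread over these windows. Single windows thus rest on few fragments, and how far counting error lowers the shares below was not tested. At 40 min, 198 of the 1234 sensitive promoters with a value in every window had a ratio above 0 in all 10 (16.0%, exact 95% binomial interval 14.0 to 18.2), against 3.33% of all promoters and 0.837% of the remaining ones. The median was 8 windows, 847 promoters had 8 or more (68.6%) and 57 had 5 or fewer (4.62%). In untreated cells 160 of 959 had all 10 windows above 0 (16.7%, against 4.55% of all and 2.92% of the remaining promoters), and at 20 min 27 of 161 (16.8%, against 3.75% and 0.908%). No resistant promoter had all 10 above 0 in any of the 3 conditions. The window from -200 to 0 bp had the highest median at 40 min (0.903) and at 20 min (1.032). In untreated cells the outermost windows were the highest, with 0.771 from -1000 to -800 bp and 0.759 from 800 to 1000 bp, against 0.701 from -200 to 0 bp. The window from 200 to 400 bp was the lowest each time, at 0.287 without HKST, 0.329 at 20 min and 0.439 at 40 min. It was also the lowest each time over all promoters, at -0.21, -0.056 and -0.112. The share with every window on the light side depended on the windows, and at 40 min was 48.6% in 5 windows of 400 bp (13.3% of all promoters) and 1.13% when each 200 bp window had to be above 0.5 (0.104% of all).

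The deepest sensitive promoters show the values behind these medians. CDC123 gave 2.67 rpm light and 1.76 rpm heavy in untreated cells, 3.05 and 1.50 rpm at 20 min, 2.68 and 1.61 rpm at 40 min, and 3.11 and 1.89 rpm at 60 min. The 60 min values of this and the other sensitive promoters entered the choice. The log2 ratios of CDC123 were 0.58 (0.40 to 0.81) in untreated cells, 0.98 (0.80 to 1.26) at 20 min and 0.70 (0.48 to 0.99) at 40 min. The light signal of CAPZA1 was 2.12, 2.53, 2.36 and 2.47 rpm from untreated cells to 60 min, and its heavy signal 1.50, 1.46, 1.59 and 1.37 rpm. Its ratios were 0.47 without HKST, 0.75 at 20 min and 0.54 at 40 min. ST7L, whose TSS is next to that of CAPZA1 on the other strand, gave 0.49, 0.75 and 0.53 from largely the same fragments and is not a second measurement. NUP160 gave 1.91, 1.88, 1.95 and 1.86 rpm light and 1.10, 1.23, 1.29 and 1.27 rpm heavy, so that its ratio was 0.75 without HKST, 0.58 at 20 min and 0.55 at 40 min. By contrast the resistant promoter of CR1L gave 2.45, 2.64, 2.80 and 2.55 rpm light against 4.03, 3.63, 4.18 and 3.79 rpm heavy. LCK gave ratios of -0.43, -0.09 and -0.38, with an interval at 20 min that included 0 (-0.27 to 0.09).

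Among the 12 deep promoters, the counting interval of the difference from untreated cells lay above 0 for PRCC, MRPL9 and CDC123 at 20 min. At 40 min it did so for PRCC only. Over all promoters such intervals made up 10.6% at 20 min and 5.91% at 40 min. PRCC, a gene known from fusions in renal carcinoma, gave 1.56 rpm light and 1.40 rpm heavy in untreated cells, 1.90 and 1.10 rpm at 20 min, 1.81 and 1.11 rpm at 40 min and 1.67 and 1.13 rpm at 60 min. Its ratio was 0.15 (-0.07 to 0.39) without HKST, 0.73 at 20 min and 0.66 at 40 min, a difference from untreated cells of 0.58 (0.26 to 0.97) and 0.51 (0.17 to 0.93). MRPL9, a mitochondrial ribosomal protein, went from 0.25 in untreated cells to 0.60 at 20 min and 0.60 at 40 min, a difference of 0.34 (0.02 to 0.74) and 0.35 (-0.003 to 0.754), of which the second included 0. CDC123 was 0.40 (0.11 to 0.74) higher at 20 min than in untreated cells. The other deep promoters gave these ratios, in the order untreated, 20 min, 40 min. LINC00339, a long non-coding RNA, had 0.77, 0.80 and 0.83, close to the same value each time. FLAD1, the synthase of the cofactor FAD, had 0.62, 0.65 and 0.52. CD52, a lymphocyte surface glycoprotein, had 0.61, 0.87 and 0.45. FOXD2, a forkhead factor, had 0.49, 0.37 and 0.25, and TMEM138, a ciliary membrane protein, had 0.34, 0.53 and 0.31. SDHC, a subunit of succinate dehydrogenase, was the least sensitive of the 12 at 40 min, with 0.22, 0.33 and 0.10, the last not distinguishable from 0 (-0.14 to 0.36).

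**Figure D3:**
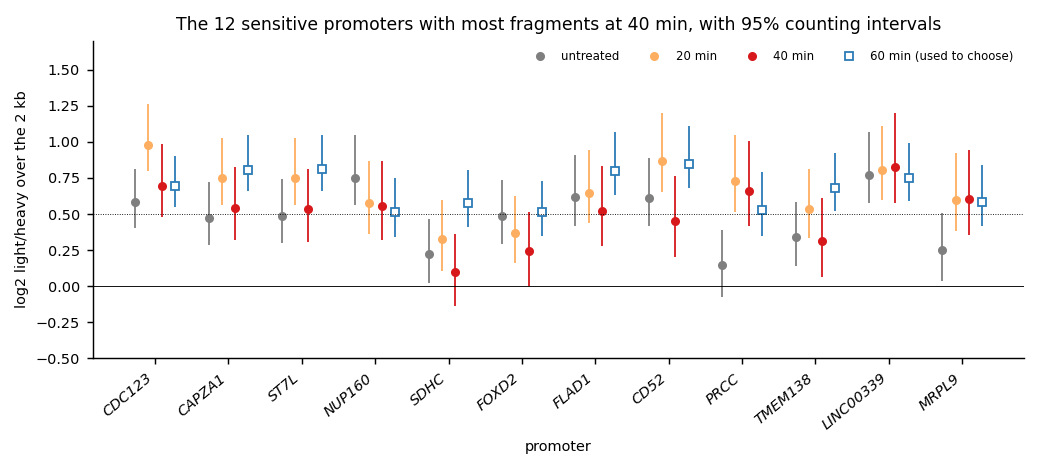
Log2 ratio of light over heavy signal of the 12 most deeply covered sensitive promoters in untreated cells and at 20, 40 and 60 min of HKST, the last used to choose them, with exact 95% counting intervals as lines. The ratios lie above 0 at every time, and the intervals of PRCC without HKST and of SDHC at 40 min reach below 0.

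Among the 1663 sensitive promoters with at least 100 fragments at 40 min, the ratio at that time ranged from -0.34 to 1.65. The highest was SP1, a general activator that binds GC boxes, with 0.773 rpm light and 0.178 rpm heavy at 40 min (ratio 1.65, 1.38 to 2.94), after 0.794 and 0.372 rpm in untreated cells (0.92, 0.65 to 1.56). Next came the microRNA gene MIR548F2 at 1.61, CLEC2D, a lectin-like ligand on lymphocytes, at 1.59 (1.15 in untreated cells), MIR3912 at 1.55, MACC1, a regulator in colon cancer, at 1.51 (0.92 in untreated cells), and MIR4782 at 1.50. At the low end, LIX1 gave 0.537 rpm light and 0.704 rpm heavy at 40 min (-0.34, -0.88 to 0.11) and 0.837 and 0.642 rpm in untreated cells (0.34, -0.02 to 0.79). HLA-F, a class I molecule, had -0.20, MIR4460 -0.11, the interleukin 21 receptor gene IL21R -0.11, the cadherin CDH10 -0.07 and the tubulin TUBA1A -0.07. The intervals of these 6 lowest all included 0. At the selecting threshold, ZNF354B, ENPP3 and MIR4781 were just inside and DCDC1, OMG and DPM1 just outside, all at 0.50 at 60 min. At 40 min the first 3 had 0.07, 0.55 and 0.37 and the last 3 had 0.84, 0.43 and 0.33, so the threshold did not separate neighbours in an independent library.

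The sensitive promoters, like the remaining ones, fell into 2 kinds by sequence. Over the 2 kb their median GC content was 48.5% (48.0 to 48.9), below the 53.3% of the remaining promoters, the 57.9% of the resistant ones and the 55.0% of all promoters. The observed over expected ratio of CpG dinucleotides had one group between 0.1 and 0.3, with 13.7% and 13.6% of the sensitive promoters in its 2 steps of 0.1, and another with 21.5% between 0.7 and 0.8, while only 5.04% and 4.98% lay in the steps from 0.3 to 0.5. The remaining promoters also had 2 groups, with 17.6% and 20.8% in the steps from 0.1 to 0.3 and 13.4% between 0.6 and 0.7. Between these, 8.0% lay from 0.4 to 0.5. Split at 0.5, a value chosen after the data were seen, 1017 sensitive promoters were CpG rich (61.0%) and 649 CpG poor. The same share over all promoters was 61.1%, over the remaining promoters 40.4% and over the resistant promoters 32.3%. The CpG-rich sensitive promoters had a median GC content of 51.4% and a deeper gap at the TSS (-1.26 on the log2 scale of the second condition). The CpG-poor ones had a GC content of 38.8% and a shallower gap (-0.586). The depth of the gap was itself limited by the choice. The remaining promoters showed the same contrast, with -1.03 for their CpG-rich and -0.516 for their CpG-poor part.

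Base composition moved with the ratio. Across the 9049 promoters the correlation between GC content and the 40 min ratio was r = -0.48 (rho = -0.47), with -0.43 for the CpG-rich and -0.73 for the CpG-poor ones, a description over promoters of the same 2 libraries. In the lowest GC decile of all promoters (up to 40.8% GC), 40.6% of the promoters with the same level and shape were sensitive, and in the highest decile 2.64%. Within each decile the sensitive promoters had a higher 40 min median than the remaining ones, with 0.66 against 0.26 in the lowest and 0.37 against -0.41 in the highest. The 2 groups were split on the 60 min ratio, which moved with the 40 min ratio (r = 0.90), so this order follows largely from the choice. With the median of its GC decile subtracted from each promoter, the median ratio of the sensitive promoters was 0.433 at 40 min and 0.303 in untreated cells. What composition contributed to the ratio was not tested.

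**Figure D4:**
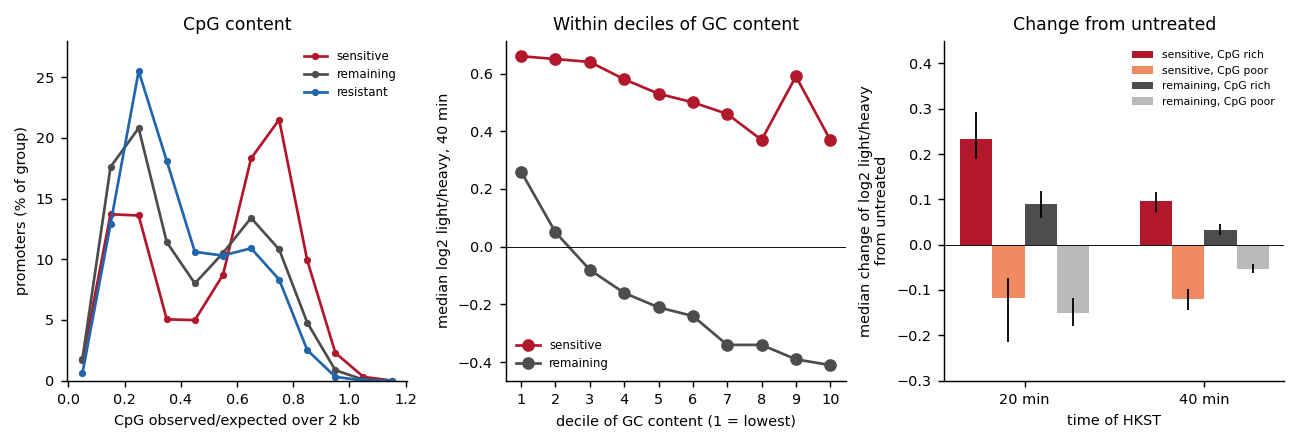
Share of each group of promoters by observed over expected CpG ratio (left), median 40 min log2 ratio by decile of GC content (middle), and median difference of the log2 ratio from untreated cells by CpG kind, with the 95% interval of the median as a line (right). The sensitive promoters show 2 CpG groups, and their ratio lies above that of the remaining promoters in each of the 10 deciles, while CpG-rich and CpG-poor promoters differ from untreated cells in opposite directions, which does not hold for the CpG-poor sensitive ones once the GC decile median is subtracted.

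The 2 kinds differed in where they were sensitive. In untreated cells all 10 windows were above 0 in 39.3% of the CpG-poor and 6.63% of the CpG-rich sensitive promoters, and at 40 min in 23.3% and 11.6%. At 20 min the shares were 19.6% of 56 CpG-poor promoters (10.2 to 32.4) and 15.2% of 105 CpG-rich ones (8.97 to 23.6), with overlapping intervals, and 8 or more windows were above 0 in 78.6% and 77.1%. The window from 200 to 400 bp downstream of the TSS had a median of 0.765 in the CpG-poor and 0.057 in the CpG-rich promoters in untreated cells. At 20 min the same window had 0.577 and 0.226, and at 40 min 0.716 and 0.256. In the window from -200 to 0 bp the values at 40 min were 0.801 and 0.967. The dip downstream of the TSS was thus deeper in the CpG-rich promoters in the 3 conditions.

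Short motifs were searched on both strands from -250 to +50 bp, as letters only. CCGGAAG, the core recognised by ETS factors, was in 14.8% of the sensitive, 7.63% of the remaining, 4.81% of the resistant and 11.6% of all promoters. It was mostly in the CpG-rich kind, with 22.4% of the sensitive and 13.8% of the remaining CpG-rich promoters, and with 2.93% and 3.45% of the CpG-poor ones. TATAAA, the TATA box, was in 17.0% of the sensitive and 10.7% of all promoters, and in 30.2% of the CpG-poor sensitive promoters against 15.9% of the CpG-poor remaining ones, which were richer in GC. CCAAT was in 42.7% of the sensitive and 35.4% of all promoters. The GC box GGGCGG was in 37.4% and 52.8%, the E-box CACGTG in 6.18% and 7.76%, and the AP-1 site TGACTCA in 4.02% and 3.9%. Of the printed sequences, that of CDC123 held CCGGAAG, those of CAPZA1, ST7L and CR1L held CCAAT and GGGCGG, that of NUP160 held GGGCGG and that of LCK held none of the 6.

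Between untreated and stimulated cells the ratio of most sensitive promoters differed by less than counting error. At 20 min the median difference was 0.142 (0.033 to 0.203, n = 214), with 129 promoters higher and 85 lower. The counting interval of the difference was above 0 for 30 (14.0%, against 10.6% of all promoters) and below 0 for 8 (3.74%, against 9.49%). At 40 min the median difference was 0.028 (0.008 to 0.048, n = 1273). It was above counting error for 69 (5.42%, against 5.91% of all promoters) and below it for 53 (4.16%, against 5.26%), so at 40 min the sensitive promoters were called about as often as any others. Both differences use the same untreated tables, and the light one of these also entered the first 2 conditions of the choice.

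The small median hid opposite differences in the 2 kinds of promoter. In the CpG-rich sensitive promoters the ratio was higher at 20 min by a median of 0.233 (0.19 to 0.293), with 109 of 137 higher and 28 beyond counting error above (20.4%, against 10.6% of all and 42 of 382 remaining CpG-rich promoters), 0 below. At 40 min it was higher by 0.096 (0.071 to 0.117), with 63 of 868 beyond counting error above (7.26%), near the 6.48% of the remaining CpG-rich and 5.91% of all promoters, and 19 below (2.19%, against 2.66% of the remaining CpG-rich ones). In the CpG-poor ones it was lower at 20 min by a median of -0.118 (-0.214 to -0.074), with 57 of 77 lower and 8 beyond counting error below, and at 40 min by -0.119 (-0.144 to -0.097), with 274 of 405 lower and 34 beyond counting error below. These are 10.4% at 20 min and 8.4% at 40 min, less than the 24.7% and 12.1% of the remaining CpG-poor promoters. The remaining promoters leaned the same way, with 0.089 and 0.032 for their CpG-rich and -0.151 and -0.053 for their CpG-poor part. On the same promoters at 20 min, the 137 CpG-rich sensitive ones had median log2 differences from untreated cells of 0.189 in light and -0.044 in heavy signal, and the 77 CpG-poor ones of 0.096 and 0.225. With the GC decile median subtracted, the CpG-rich medians were 0.206 at 20 min and 0.085 at 40 min, and the CpG-poor medians turned to 0.142 and 0.042, so the direction in the CpG-poor promoters did not hold under that scaling. With both replicates combined in 1 table per digest and time, digestion extent and stimulation cannot be told apart here.

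Among gene groups, the replication-dependent histone genes, whose unpolyadenylated mRNAs are made in S phase, had the highest 40 min median of the 30 lists. The share of promoters of like level and shape that were sensitive was 18.4% over all genes, and 31 of 48 for histones (64.6%). Over all 72 histone promoters, chosen or not, the 40 min median was 0.66, against 0.04 over all promoters, and 61.1% were above 0.5. In untreated cells the median was 0.53 over 68 histone promoters. At 20 min only 13 could be read, with a median of 0.0 and 38.5% above 0, below the 0.08 and 55.9% of all promoters. The 31 sensitive ones had a median of 0.87 at 40 min and 0.61 in untreated cells, and the counting intervals of all 31 lay above 0 at 40 min. HIST1H4L, an H4 gene, was the highest, with 1.06 rpm light and 0.402 rpm heavy at 40 min (1.21, 0.93 to 1.93) and 1.03 and 0.554 rpm in untreated cells (0.80). HIST4H4, a single H4 gene on chromosome 12, was the lowest at 0.31. HIST1H2AM, an H2A gene, gave 1.54 rpm light and 1.29 rpm heavy in untreated cells and 1.93 and 1.11 rpm at 40 min, a difference in ratio of 0.51 (0.11 to 0.97). It was 1 of 2 with an interval of the difference above 0 among the 30 sensitive histone promoters read at both times. Over all promoters 5.91% had one. Histone genes lie close together and some share fragments.

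Genes of the response to infection were mixed. Of interferon-stimulated genes, 13 of 22 of like level and shape were sensitive (59.1%, against 18.4% of all) and 0 resistant. The 40 min median over the 35 promoters was 0.50. GBP1, a guanylate-binding GTPase of cell defence, gave 1.28 rpm light and 0.512 rpm heavy in untreated cells, 1.45 and 0.737 rpm at 20 min, and 1.20 and 0.486 rpm at 40 min, with ratios of 1.18, 0.88 and 1.15. IFIT1, which binds foreign RNA, had 1.05 without HKST, 0.70 at 20 min and 0.38 at 40 min, the lowest of the 13. Its neighbour IFIT3 had 0.94, 1.17 and 0.93. Of Toll-like receptor and NF-kB signalling genes, 6 of 12 were sensitive. TLR7, a sensor of single-stranded RNA, had 1.29 in untreated cells and 1.29 at 40 min. TLR1, a partner in sensing bacterial lipopeptides, had 1.03 and 1.11, TLR10 0.72 and 0.55, and the double-stranded RNA sensor TLR3 0.80 and 0.48.

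Of genes that NF-kB activates, 3 of 12 were sensitive. BIRC3, an inhibitor of apoptosis and of TNF receptor signalling, went from 0.917 rpm light and 0.622 rpm heavy in untreated cells to 0.908 and 0.404 rpm at 40 min (ratios 0.50 and 1.00, difference 0.50, 0.03 to 1.24). It was the only 1 of the 3 with an interval of the difference above 0, against 5.91% of all promoters. The chemokine CCL3 had 0.68 and 0.54, and BCL2A1, an anti-apoptotic BCL2 relative, 1.01 and 0.79. Among immediate early genes 1 of 14 was sensitive, MYC, with 1.86 rpm light and 1.42 rpm heavy in untreated cells (0.37) and 1.69 and 1.62 rpm at 40 min (0.06, -0.19 to 0.33). The NF-kB subunit genes NFKB1, NFKB2 and RELA were not among the sensitive promoters, and neither was SPI1, which encodes the ETS factor PU.1. RELA and SPI1 had a gap at the TSS deeper than the second condition allows (-3.10 and -2.43) and were left out before the ratio was considered. NFKB1 and NFKB2 met the first 2 conditions but not the third, and at 40 min NFKB1 had 0.48 (0.08 to 1.08) and NFKB2 -0.03 (-0.43 to 0.38). SPI1 had -0.22 without HKST, 0.07 at 20 min and -0.13 at 40 min.

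Genes of B cells were more often sensitive than genes of other blood lineages. Of B cell identity genes 8 of 19 were sensitive (42.1%, against 18.4% of all promoters of like level and shape) and 0 resistant (22.0% of all). Their 40 min median over 33 promoters was 0.32. Of T cell, NK and myeloid marker genes 0 of 16 were sensitive and 8 resistant, with a median over 25 promoters of -0.17. IKZF3, which encodes the lymphoid zinc finger factor Aiolos, gave 0.951 rpm light and 0.269 rpm heavy in untreated cells and 0.794 and 0.257 rpm at 40 min, with ratios of 1.51 and 1.33. MS4A1, the gene of the B cell surface protein CD20, had 0.99 without HKST, 1.22 at 20 min and 1.12 at 40 min. EBF1, a factor that specifies B cells, had 0.53 (0.15 to 1.09) at 40 min, and CIITA, the activator of class II genes, had 0.55. CR2, the complement and Epstein-Barr virus receptor, had 0.22, 0.46 and 0.19, the last with an interval that included 0 (-0.21 to 0.67). These lists are small, and their shares are descriptions.

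Genes used in every growing cell made up another block, mostly CpG rich. Of mitochondrial ribosomal protein genes 15 of 23 were sensitive (65.2%, against 18.4% of all promoters of like level and shape). Their 40 min median over 74 promoters was 0.46. MRPS21 had 0.24 without HKST, 0.64 at 20 min and 0.63 at 40 min, the last difference being 0.39 (0.03 to 0.82). Of cytosolic ribosomal protein genes 11 of 27 were sensitive (40.7%), with a median of 0.27. RPL18 was the highest of them at 40 min, with 1.21 rpm light and 0.797 rpm heavy in untreated cells (0.54) and 1.32 and 0.560 rpm at 40 min (1.11), a difference of 0.57 (0.14 to 1.15). RPS14 had -0.02 in untreated cells and 0.51 at 40 min. Sensitive promoters also made up 10 of 22 splicing factor genes (median over the list 0.45), 12 of 24 translation factor and tRNA synthetase genes (0.34), 12 of 29 oxidative phosphorylation genes (0.31), 10 of 22 RNA polymerase II initiation genes (0.29), 9 of 24 replication and cell cycle genes (0.32), 5 of 16 proteasome genes (0.35) and 8 of 28 chromatin regulators (0.24). PSMB5, a catalytic subunit of the proteasome, had 0.37 in untreated cells and 0.91 at 40 min, a difference of 0.53 (0.14 to 1.03). It was the only 1 of 4 sensitive proteasome promoters read at both times with an interval of the difference above 0. PSMA1 had 0.44 and 0.67, a difference of 0.22 (-0.23 to 0.72).

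Gene groups tied to other tissues held few sensitive promoters. These were 6 of 261 olfactory receptors (2.3%), 1 of 53 keratins and keratin-associated proteins (1.89%), 1 of 33 genes of the epidermal differentiation complex (3.03%), 2 of 23 HOX genes (8.7%), 2 of 60 other developmental transcription factors (3.33%) and 2 of 94 ion channels (2.13%), against 18.4% of all. The 40 min medians over these lists were -0.01, -0.32, -0.28, -0.33, -0.43 and -0.36. Resistant promoters made up 14.2% of the olfactory receptors, below the 22.0% of all promoters of like level and shape, and 52.8%, 36.4%, 47.8%, 53.3% and 40.4% of the other lists in the same order, above it. Olfactory receptor promoters were GC poor, with a median of 41.3%, and few were sensitive by the 60 min rule. In untreated cells, however, the 115 that could be read had a median of 0.17, and 20.0% were above 0.5, against 0.07 and 16.7% of all promoters. FLG, the filaggrin gene of skin, was the one sensitive member of its complex, with 0.96 without HKST, 0.69 at 20 min and 0.53 at 40 min, a difference at 40 min of -0.42 (-0.96 to -0.01). The share of zinc finger genes, 45 of 247 (18.2%), was about that of all promoters. It was lower for collagen and matrix genes (8 of 49, 16.3%), G protein-coupled orphan and chemokine receptors (7 of 63, 11.1%), solute carriers (14 of 142, 9.86%) and cytokines and chemokines (3 of 54, 5.56%). The 100 cytokine and chemokine promoters that could be read without HKST had a median of 0.28, and 30.0% were above 0.5, against 16.7% of all. At 40 min the median over 110 was 0.0, and 10.0% were above 0.5, against 16.0% of all. Taste and vomeronasal receptors had 2 of 22, beta-defensins 2 of 13 and clustered protocadherins 1 of 10. In untreated cells, however, the 21 taste and vomeronasal receptors that could be read had a median of 0.49. Of these, 47.6% were above 0.5, against 16.7% of all promoters. At 40 min the median over all 32 was 0.22, and 21.9% were above 0.5, against 16.0% of all. The taste receptor TAS2R42 had 0.97 in untreated cells and 0.35 at 40 min, a difference of -0.62 (-1.35 to -0.14).

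Small RNA genes, a class named after the symbols were seen, were also among the 1666. Of microRNA genes 130 of 691 were sensitive (18.8%), close to the 18.4% of all. Of small nucleolar and Cajal body RNA genes, which guide the modification of ribosomal and spliceosomal RNA, 75 of 204 were sensitive (36.8%), and of spliceosomal RNA genes 6 of 11. The start in the table of such a gene is often the end of a processed RNA inside a host gene and not a promoter. Over all sensitive promoters 77.6% lay within 50 bp of an annotated transcript start, against 79.9% of all promoters.

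**Figure D5:**
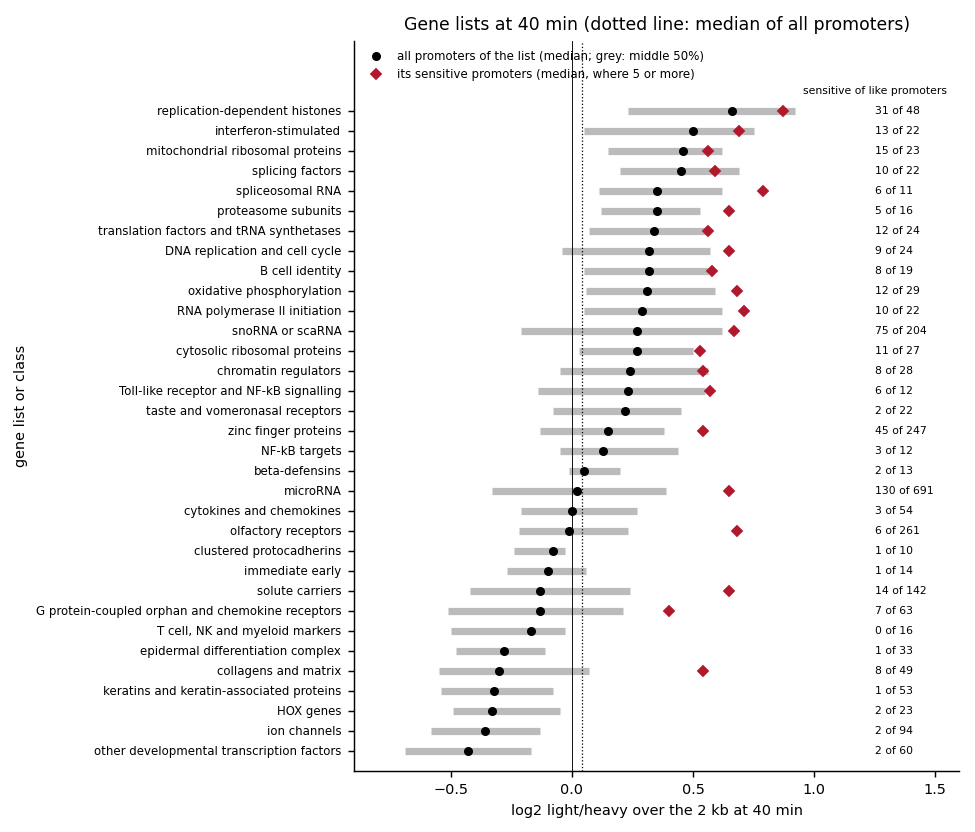
Log2 ratio of light over heavy signal at 40 min by gene group: the median over all promoters of the group (black point) with the middle 50% (grey bar), the median over its sensitive promoters (red diamond), the median of all promoters (dotted line) and, at the right, the number of sensitive promoters among those of like level and shape. Histone, interferon-stimulated and mitochondrial ribosomal genes lead with medians of 0.66, 0.50 and 0.46, and other developmental transcription factors are lowest at -0.43.

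The neighbour of a sensitive promoter was more often sensitive than the neighbour of a remaining promoter was. The nearest promoter whose 2 kb did not overlap was taken for each. At 2 to 10 kb, 67 of the 136 neighbours of like level and shape were themselves sensitive (49.3%), against 9.32% of the neighbours of remaining and 1.71% of those of resistant promoters. At 10 to 50 kb the shares were 37.6% and 11.7% for sensitive and remaining promoters, at 50 to 200 kb 33.8% and 18.7%, and at 200 to 1000 kb 31.8% and 15.0%. Neighbouring promoters also share GC content, with medians of 50.4% next to sensitive and 55.8% next to remaining promoters at 2 to 10 kb, and the part of composition in this was not tested. By chromosome, the share of sensitive promoters ran from 6.77% on chromosome 19 and 6.84% on X to 28.5% on 6 and 28.6% on 13. X was not GC rich among them, with a median of 49.9%.

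Of the 1666, 1232 had no other sensitive promoter within 50 kb (73.9%), and 4 runs held 5 or more, of which 3 are described. The run with most promoters was at chr14:101391157-101458255, where 16 of 20 promoters of like level and shape were sensitive, all of them small nucleolar RNA genes of the SNORD113 and SNORD114 families, in DNA with a median GC content of 32.9% and a 40 min median of 0.56 over the 37 promoters there. At chr6:26104175-26285727, in the main histone cluster, 14 of 17 were sensitive, all histone genes, with a median GC content of 47.0% and a 40 min median of 0.80 over 23 promoters. At chr6:27835359-27880174, 6 of 6 were sensitive, namely 5 histone genes and the olfactory receptor OR2B2.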

How the data were processed

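The authors digested crosslinked nuclei with MNase, captured mononucleosomal promoter DNA, aligned read pairs to hg19 (the submitters' processing notes name Bowtie2 2.2.2, SAMtools and bedtools) and discarded unpaired and non-unique reads. The deposited values are rpm: centers of fragments of 140 to 200 bp counted in 60 bp windows every 10 bp from -1000 to +990 bp of each TSS, per 1000000 fragments, with both replicates of each of the 8 conditions in 1 table. A fragment enters 6 windows. All values were whole multiples of 0.5 fragments within 0.05 steps, which gave the depth. A last promoter with missing values at the end of a table was left out.

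Signals were averaged over the bins of each promoter that held a value, 0.1 rpm was added, and the log2 ratio of light over heavy taken. Single promoters received exact conditional binomial intervals for the ratio and exact conditional intervals for the difference between times, both from fragment counts without the added 0.1 rpm, and medians received order-statistic intervals. A value was called beyond counting error when its 95% interval excluded 0. No test across samples was possible, since no replicate values are used here. The scripts were tested on simulated data. Sequence came from GRCh37 and transcript starts from GENCODE v44 lifted to it. Tools were Python 3.11.15, numpy 2.4.6, scipy 1.17.1, pandas 2.3.3, pysam 0.24.0 and samtools 1.23.1.

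The promoters and the 30 gene lists were chosen with earlier results of these data known. Named promoters were the 12 most deeply covered ones complete in every table and not on chromosome 8, the 6 highest and 6 lowest 40 min ratios among those with 100 or more fragments, the 3 on each side of the threshold, up to 2 of most fragments per list, and NFKB1, NFKB2, RELA, SPI1 and EBF1. Some of those picked per list, such as OAS3, OASL, LY96 and UQCRC2, are not described. Promoters outside these rules, named for being the highest or lowest of a group or for their known role, were chosen after their values were seen. Alternatives were other pseudocounts, thresholds, windows, level limits, a median over bins, a shift to a median of 0 and subtraction of the GC decile median. Another left out promoters with over 10% of bins without a value. 1 run of neighbouring sensitive promoters is not reported here.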

Additional observations from a re-analysis of the deposited data

How the results depend on the processing

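No paired analysis was possible because each table pools both replicates, and for the same reason no replicate could be left out. The number of sensitive promoters was 1666, and was 708 and 223 with the 60 min threshold at 0.75 and 1, and 952 with a minimum mean of 1 rpm. The share above 0.5 at 40 min, 64.6%, was 67.8% with a pseudocount of 0.05, 32.1% with 0.5 (6.57% of all promoters), 59.5% with ratios shifted to a median of 0, 82.2% with the threshold at 0.75 and 76.9% with the median over bins (33.4% of all promoters). Without the promoters that lacked a value in over 10% of bins, 892 sensitive ones were left and the share was 64.0%. The median ratio at 40 min, 0.603, was 0.637, 0.416, 0.567 and 0.433 with pseudocounts of 0.05 and 0.5, the shift and the GC decile median subtracted. In the same order the untreated median of 0.557 was 0.588, 0.397, 0.491 and 0.303. The 20 min median of 0.679 was 0.484 with a pseudocount of 0.5 and 0.594 with the shift. The share with every window above 0 at 40 min, 16.0%, was 48.6% in 5 windows of 400 bp (13.3% of all promoters) and 1.13% with windows above 0.5 (0.104% of all). The median GC content of 48.5% over 2 kb was 52.3% from -250 to +50 bp. Of the 31 recomputed values of these results, 21 moved. A reversal was defined as a change of sign of a median ratio, so it could not occur for the counts, shares and GC content. Of the median ratios, 0 reversed.

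Alternatives for the CpG kinds were chosen after seeing the data. With a pseudocount of 0.5 the CpG-rich difference from untreated cells was 0.172 at 20 min and 0.065 at 40 min, and the CpG-poor one at 40 min -0.085. With the split at 0.6 the CpG-poor differences were -0.072 at 20 min and -0.083 at 40 min. With the GC decile median subtracted they reversed, to 0.142 and 0.042. The cause was not tested. The heavy digest at 40 min was the shallowest table, with 3270000 fragments and a median of 64 per sensitive promoter, which limits the precision of single-promoter values.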
